A study of Mus musculus with 12 samples.

Results

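The question was what a subcutaneous KPC tumor, without any treatment, went with in the type 1 conventional dendritic cells (cDC1) of the inguinal lymph node. KPC names a mouse model of pancreatic cancer, and cDC1 are the dendritic cells specialised in presenting material taken up from other cells to CD8 T cells. The comparison was chosen by the group labels alone: 3 RNA-seq libraries from mice with a tumor and no CD40 agonist (Tumor-NoCD40) against 3 from mice with neither (NoTumor-NoCD40), 6 of the 12 libraries of the study. The other 6 libraries, 3 NoTumor-CD40 and 3 Tumor-CD40, came from mice given a CD40 agonist and are used here to share the estimate of the spread and to set values beside the main ones. The labels give no strain, age, sex, tumor size, time after implantation or sort gate, and do not say whether a library is 1 animal or a pool, nor whether the replicates are different animals. The p-values therefore reflect no more than the spread among these samples. Library titles start with a date-like prefix, which pairs library 1 of both groups and library 2 of both groups. The third libraries carry different prefixes, and that of NoTumor-NoCD40 library 3 occurs in no other library.

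In a lymph node, cDC1 exist as resident cells and as cells that arrive from the tissue after maturing. Maturation switches on the chemokine receptor Ccr7, the actin bundler Fscn1 and costimulatory ligands, and lowers the genes that serve sensing and uptake. Mature dendritic cells can also carry molecules that restrain T cells, such as the PD-1 ligands Cd274 (PD-L1) and Pdcd1lg2 (PD-L2), and can make retinoic acid through the enzyme encoded by Aldh1a2, which is known from dendritic cells that direct T cells to the gut or favour regulatory T cells.

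No gene of 18095 tested passed an adjusted p of 0.05 (0%) (edgeR's quasi-likelihood test, p adjusted by Benjamini-Hochberg). At an unadjusted p under 0.05 there were 1053 genes, 620 higher with a tumor (3.43%) and 433 lower (2.39%). DESeq2, on the same counts, called 29 genes, 22 of them higher, and limma-voom called 0. The 3 tumor libraries lay wholly above the 3 others in 735 genes (4.06%) and wholly below in 890 (4.92%). These shares are the background for each count below. The gene with the smallest p was Aldh1a2, and the next among well-expressed genes with groups apart and higher was Pdcd1lg2. After it came Slpi, AA467197, Scin and the antibody genes Igkv4-53 and Ighg1, all higher in every tumor library. Most genes of the mature program and most cDC1 identity genes overlapped between the groups.

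Depth did not separate the groups. The 6 libraries held 22855143 to 27163393 expected counts each, spread over 20748 to 22523 genes. Pairs of libraries correlated at 0.946 to 0.982 within the 2 groups and at 0.947 to 0.984 between them (log2 of CPM + 1, across genes). For the 10472 genes whose higher group averaged 5 CPM or more, the median standard error of the log2 fold change was 0.247, and in 7317 of them (69.9%) the 95% interval lay within 1 log2 unit of 0. For those genes a 2-fold difference lay outside the interval. The interval lay wholly above 1 in 20 such genes and wholly below -1 in 8.

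**Figure D1:**
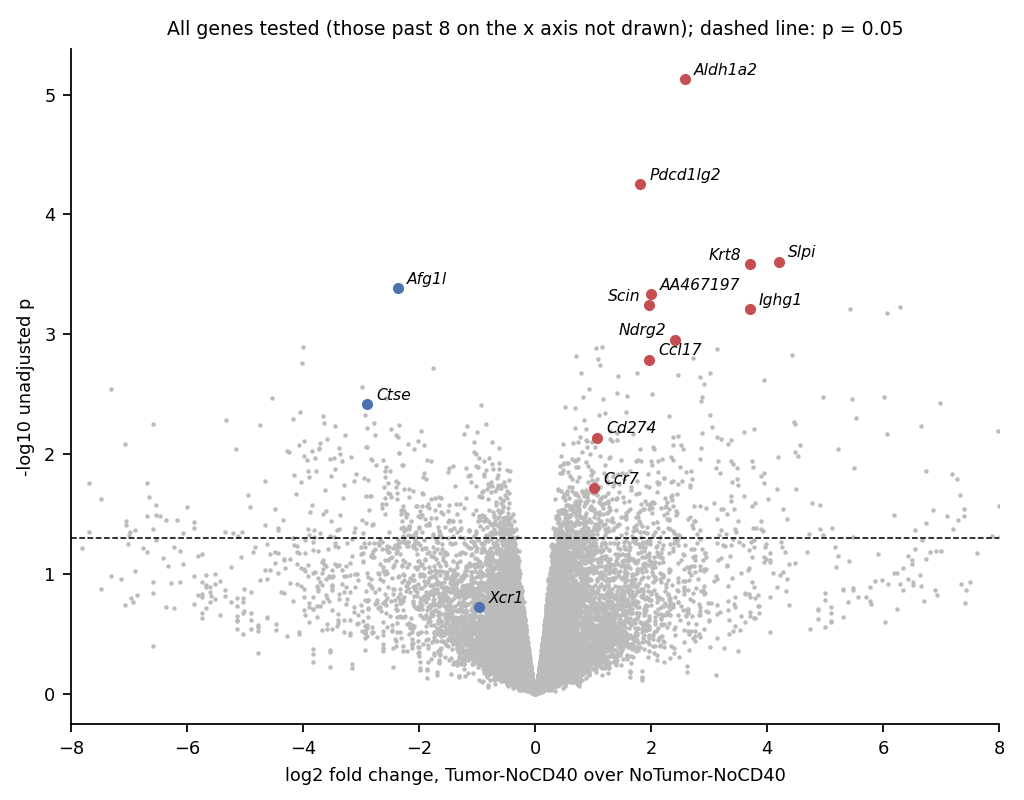
Each grey point is a gene tested, with its log2 fold change (Tumor-NoCD40 over NoTumor-NoCD40) on the x axis and −log10 of its unadjusted p on the y axis; red and blue points are named genes above and below 0, and the 20 genes past 8 on the x axis are not drawn. Aldh1a2 and Pdcd1lg2 stand highest, and Ctse and Afg1l are the labelled genes furthest to the left.

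Aldh1a2 encodes the retinaldehyde dehydrogenase that makes retinoic acid (ENSMUSG00000013584, GRCm38 chr9:71215789-71296243). It was at 6.89, 4.26 and 2.87 CPM in NoTumor-NoCD40 libraries 1 to 3 and at 35.3, 30.9 and 18.5 CPM in Tumor-NoCD40 libraries 1 to 3. All 3 tumor libraries were high, and the lowest of them stood well above the highest library without a tumor. The means were 4.67 ± 2.04 CPM (SD, n = 3) and 28.2 ± 8.69 CPM (SD, n = 3). The log2 fold change was 2.58 ± 0.37 (SE), with a 95% interval from 1.78 to 3.38 (unadjusted p = 7.44e-06, adjusted p = 0.135 by edgeR's quasi-likelihood test). Over the alternatives the fold change stayed between 1.99 and 2.97, while the adjusted p ran from 2.32e-06 with DESeq2 to 0.952 without NoTumor-NoCD40 library 2. Within the pairs of one title prefix the log2(CPM + 1) difference was 2.20 in the first pair and 2.60 in the second. A single annotated transcript carried the whole level.

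Of the other genes of retinoic acid and vitamin A metabolism, 17 of 24 listed passed the filter on low counts, Aldh1a2 included. Aldh1a2 was the only member at an unadjusted p under 0.05, and the list's median log2 fold change was 0.01 against -0.01 over all genes tested. Per transcript length, mean Aldh1a2 levels were 1.27 TPM without and 8.01 TPM with a tumor. Its sister enzymes were near or at 0: Aldh1a3 averaged 0.231 and 0.587 TPM, and Aldh1a1 was listed at 0 in all 6 libraries. Rdh10, which makes the retinaldehyde that Aldh1a2 uses, was at 1.01 and 1.09 mean TPM. The receptor Rara had a log2 fold change of -0.29 (95% interval -0.76 to 0.19). The retinoic acid-degrading enzymes Cyp26a1 and Cyp26b1 held 1 and 4 counts over the 6 libraries. Ccr9, the gut-homing chemokine receptor, was at 38.3, 40.8 and 50.5 CPM without and at 19.0, 46.8 and 11.0 CPM with a tumor, with overlapping groups.

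Pdcd1lg2 encodes PD-L2 (ENSMUSG00000016498, GRCm38 chr19:29410919-29471161). It was at 5.93, 4.60 and 2.46 CPM without a tumor and at 18.0, 12.5 and 15.6 CPM with one. The groups did not overlap, and the lowest tumor library, library 2, was above each library without a tumor. The log2 fold change was 1.81 ± 0.32 (SE), with a 95% interval from 1.13 to 2.50 (adjusted p = 0.507 by edgeR's quasi-likelihood test). Its neighbour Cd274, the PD-L1 gene, was at 53.7, 39.4 and 23.2 CPM without and 103.9, 54.7 and 85.5 CPM with a tumor. The groups lay apart by a narrow margin, since Tumor-NoCD40 library 2 was just above NoTumor-NoCD40 library 1. The log2 fold change of Cd274 was 1.07 (95% interval 0.34 to 1.80, adjusted p = 0.775 by the same test).

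Among 18 of 20 coinhibitory and regulatory genes that passed the filter, 7 were higher at an unadjusted p under 0.05 (3.43% of all genes were) and 0 were lower. The median log2 fold change was 0.32, with 9 members above 0 and 9 below. The count of higher genes was 3 without Tumor-NoCD40 library 3 and between 5 and 8 without each of the other libraries. The 8 were found without Tumor-NoCD40 library 2, where 4 members were lower at that p. Besides both PD-1 ligands the 7 were Cd200, Nectin2, Pvr, Pdcd1 and Lag3. Nectin2, a ligand of TIGIT and PVRIG, was at 1.19, 2.07 and 1.15 CPM without and 6.49, 4.59 and 2.25 CPM with a tumor, so that the groups did not overlap. Pdcd1, the receptor PD-1, which T cells also express, was at 0.727, 3.80 and 2.38 CPM without and 7.07, 1.92 and 26.5 CPM with a tumor. Its high value came from library 3, and library 2 lay among those without a tumor. Lag3 had the same order, with 43.6 CPM in Tumor-NoCD40 library 3. Ido1 stayed at or below 1.41 CPM in each library, and Il10 had 2 counts over the 6 libraries and was not tested. Tgfb1 overlapped between groups (log2 fold change -0.36, 95% interval -1.10 to 0.38).

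**Figure D2:**
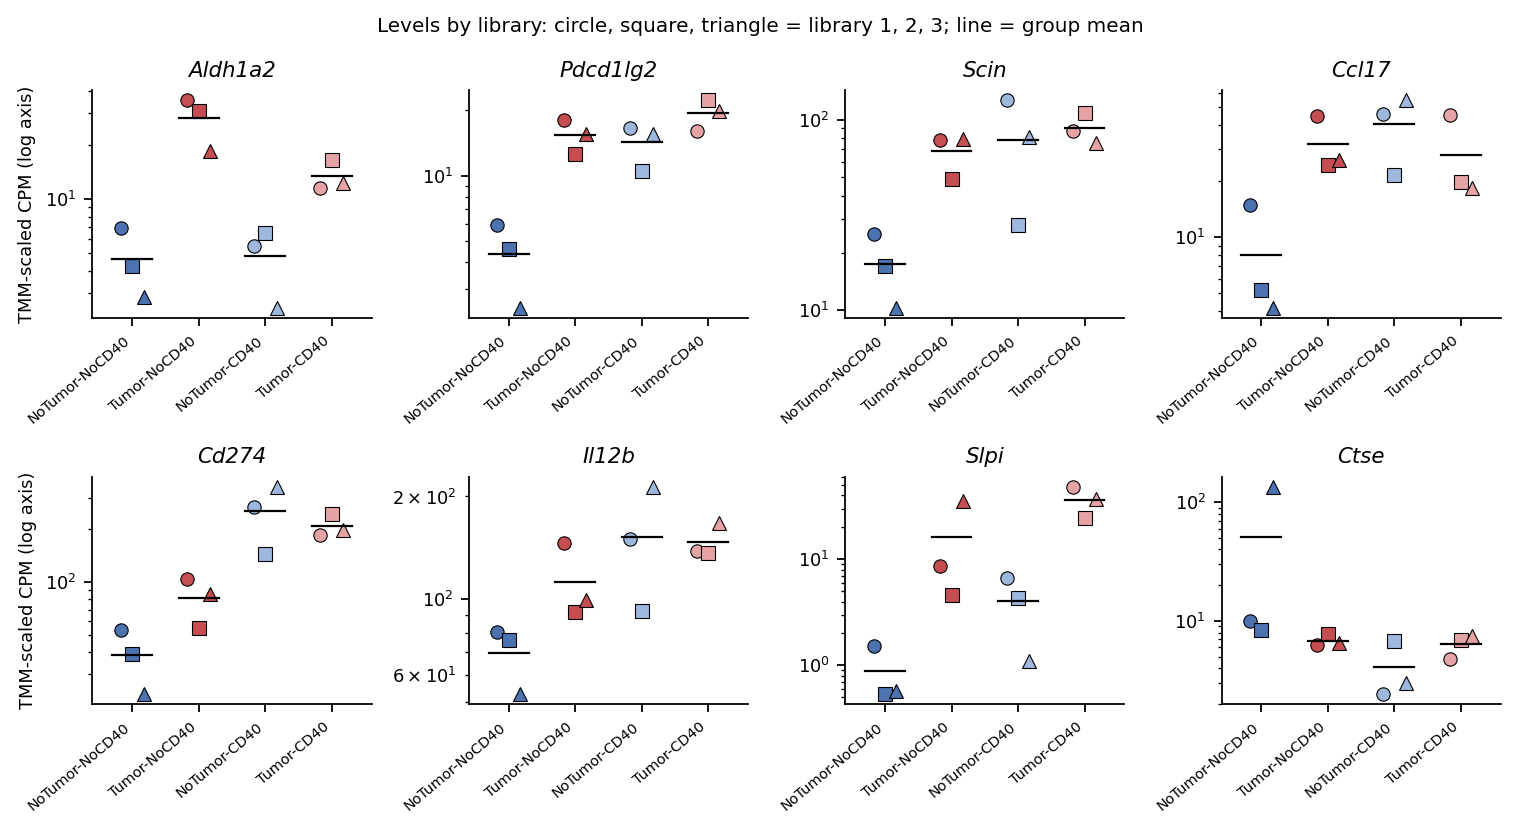
TMM-scaled CPM (log axis) of 8 genes in each of the 12 libraries, by group; circle, square and triangle are libraries 1, 2 and 3 of a group and the line is the group mean. In 7 of the genes all 3 Tumor-NoCD40 points lie above the 3 NoTumor-NoCD40 points, and in Ctse 1 library without a tumor, library 3, stands alone at 134 CPM.

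Scin encodes scinderin, which severs actin filaments (ENSMUSG00000002565, GRCm38 chr12:40059769-40134228). It was at 25.1, 17.2 and 10.3 CPM without and at 78.2, 48.8 and 79.2 CPM with a tumor. All tumor libraries were high, library 2 the least so. The log2 fold change was 1.97 ± 0.44 (SE; adjusted p = 0.775 by edgeR's quasi-likelihood test). Among 29 genes of movement receptors and cytoskeleton, 6 were higher and 2 lower at an unadjusted p under 0.05, the 6 becoming 3 without Tumor-NoCD40 library 3. Vil1, the actin bundler villin, was at 0.153, 0 and 0.082 CPM without and 2.73, 1.28 and 1.42 CPM with a tumor, a difference at levels near the counting floor. Cxcr5, the receptor that draws cells to B cell follicles, was at 2.07, 1.84 and 1.39 CPM without and 7.39, 3.69 and 10.5 CPM with a tumor, again without overlap. Ccr2, an inflammatory chemokine receptor, was the reverse: 162.2, 245.4 and 283.2 CPM without and 93.0, 147.1 and 40.8 CPM with a tumor.

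Of the cytokines and chemokines, 25 of 26 were tested, 2 were higher and 1 lower at an unadjusted p under 0.05, and the median was 0.34. The median was 0.03 without Tumor-NoCD40 library 1, and without library 2 there were 9 higher and 4 lower. Ccl17, a chemokine of mature dendritic cells that attracts Ccr4-bearing T cells, was at 14.9, 5.18 and 4.18 CPM without and 45.1, 24.5 and 26.1 CPM with a tumor. The groups did not overlap, and NoTumor-NoCD40 library 1 was the highest of its group (log2 fold change 1.97, 95% interval 0.88 to 3.05). Ccl22, which uses the same receptor, overlapped: Tumor-NoCD40 library 2 had 786.7 CPM against 512.4 to 1605 CPM without a tumor. Il12b, a subunit of interleukin 12, was at 80.0, 75.9 and 52.8 CPM without and 146.1, 92.0 and 99.3 CPM with a tumor. The groups lay apart, with a small log2 fold change of 0.69 (95% interval 0.10 to 1.28). Il12a, its partner chain, reached at most 0.537 CPM. Il23a was higher in NoTumor-NoCD40 library 1 only, at 2.60 CPM, and at or below 0.230 CPM elsewhere. Cxcl9, which attracts Cxcr3-bearing T cells, was at 342.0, 480.6 and 411.9 CPM without and 202.7, 452.8 and 60.7 CPM with a tumor, with overlap.

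Costimulatory genes gave a median log2 fold change of 0.44 over 13 of 15 tested, 4 of them higher at an unadjusted p under 0.05. That count was 4, 1 and 2 on leaving out each NoTumor-NoCD40 library (1 to 3), and 3, 9 and 0 on leaving out each Tumor-NoCD40 library (1 to 3). Cd70, the ligand of CD27, was at 3.56, 3.26 and 2.46 CPM without and 8.47, 4.63 and 12.9 CPM with a tumor. Tnfsf9, the 4-1BB ligand, was at 3.21, 2.88 and 3.73 CPM without and 7.81, 4.55 and 7.27 CPM with a tumor. Both groups were apart for these ligands, with Tumor-NoCD40 library 2 the nearest to the libraries without a tumor. The main costimulators were not distinguishable at this precision: the log2 fold change was 0.35 for Cd80 (95% interval -0.22 to 0.92), -0.38 for Cd86 (95% interval -0.95 to 0.19) and 0.29 for Cd40 (95% interval -0.33 to 0.92).

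**Figure D3:**
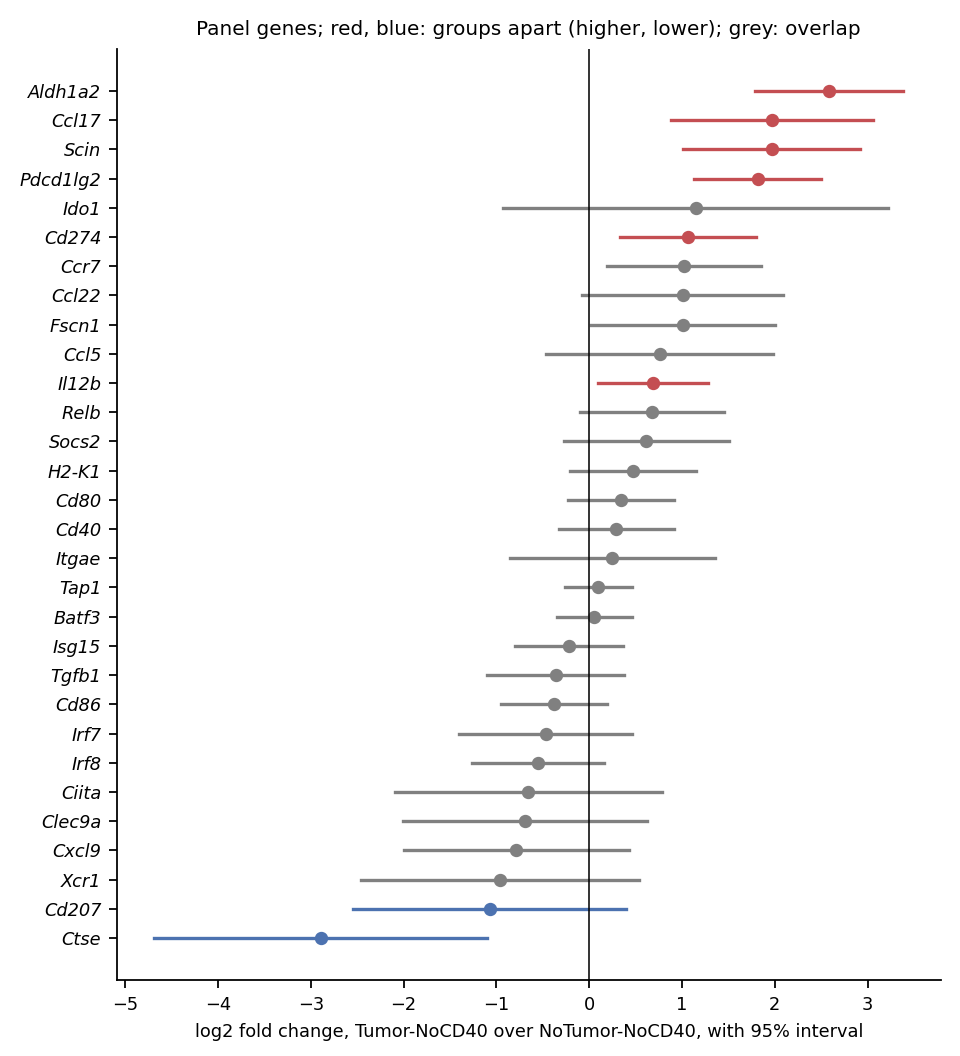
Log2 fold changes (points) and 95% intervals (lines) of 30 panel genes tested, Tumor-NoCD40 over NoTumor-NoCD40; red and blue mark genes whose 3 and 3 libraries do not overlap, higher or lower, and grey those that overlap. Of the 30 genes, 6 are apart and higher, 2 apart and lower, and the cDC1 genes Xcr1 and Clec9a have wide intervals across 0.

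The mature or migratory program had 32 of 32 genes above 0, a median log2 fold change of 0.68, and 6 genes higher at an unadjusted p under 0.05. In only 2 of the 32, Ccl17 and Bcl2l14, did the groups not overlap. The list's summed level was 28418, 16905 and 11743 CPM without a tumor and 37509, 12630 and 45035 CPM with one. Tumor-NoCD40 libraries 1 and 3 were the highest of the 6, and library 2 fell between NoTumor-NoCD40 libraries 2 and 3. Ccr7, which guides dendritic cells into lymph nodes, followed it at 838.5, 581.8 and 390.5 CPM without and 1429, 573.1 and 1678 CPM with a tumor (log2 fold change 1.02, 95% interval 0.19 to 1.85). Fscn1 was at 4558, 2577 and 1649 CPM without and 6627, 2342 and 8684 CPM with a tumor. The count of 6 at an unadjusted p under 0.05 depended on single libraries: it was 27, 4 and 1 on leaving out each NoTumor-NoCD40 library (1 to 3), and 2, 32 and 2 on leaving out each Tumor-NoCD40 library (1 to 3). The median was 1.03 without Tumor-NoCD40 library 2, 0.37 without library 3 and 0.18 without the third libraries of both groups, and over all alternatives it ran from 0.11 to 1.07. Counts over the 18095 genes moved too, to 1683 higher and 1570 lower without Tumor-NoCD40 library 2. The same held for most lists: of 43, 38 had a count at that p that moved by more than 1.5 times on leaving out 1 of the 6 libraries, and in 13 the median changed sign. Without Tumor-NoCD40 library 2 the count was higher in 36 lists, and without library 3 it was lower in 24. In bulk libraries such as these, fewer cells of a type and less RNA per cell cannot be told apart.

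The cDC1 identity list mirrored this. Its summed level was 13010, 17329 and 16431 CPM without a tumor and 8381, 18977 and 4452 CPM with one. Libraries 1 and 3 of the tumor group were the lowest of the 6, and library 2 was the highest. Of 30 genes, 27 were below 0, with a median of -0.53 and 0 at an unadjusted p under 0.05. Without library 2 of the tumor group the median was -1.36 and 21 genes were lower at that p. Without library 3 of the tumor group it was -0.16 with 1 lower gene, and without the third libraries of both groups it was -0.12. Xcr1, the cDC1 chemokine receptor, was at 515.1, 779.8 and 682.3 CPM without and 256.6, 685.6 and 73.1 CPM with a tumor (log2 fold change -0.96, 95% interval -2.46 to 0.53). Clec9a, the receptor for dead cells, was at 201.5, 282.2 and 316.1 CPM without and 104.8, 357.4 and 33.2 CPM with a tumor. Both genes were low in tumor libraries 1 and 3 only, and all 6 libraries held both, Clec9a at 33.2 CPM or more.

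The transcription factors of the lineage varied less. Batf3 was at 94.2, 99.3 and 87.7 CPM without and 103.7, 100.6 and 87.7 CPM with a tumor, and its log2 fold change was 0.05 (95% interval -0.35 to 0.46). Id2 had a log2 fold change of -0.06 (95% interval -0.43 to 0.30), Zbtb46 of -0.18 (95% interval -0.54 to 0.18) and the growth factor receptor Flt3 of -0.06 (95% interval -0.40 to 0.28). For these 4 genes a 2-fold difference in either direction was outside the interval. Irf8, which sustains cDC1, was lower in tumor libraries 1 and 3, and the groups overlapped (log2 fold change -0.55, 95% interval -1.26 to 0.16). Xlr was the only member of the identity list whose groups lay apart, at 23.5, 29.8 and 24.3 CPM without and 20.1, 15.4 and 22.2 CPM with a tumor.

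**Figure D4:**
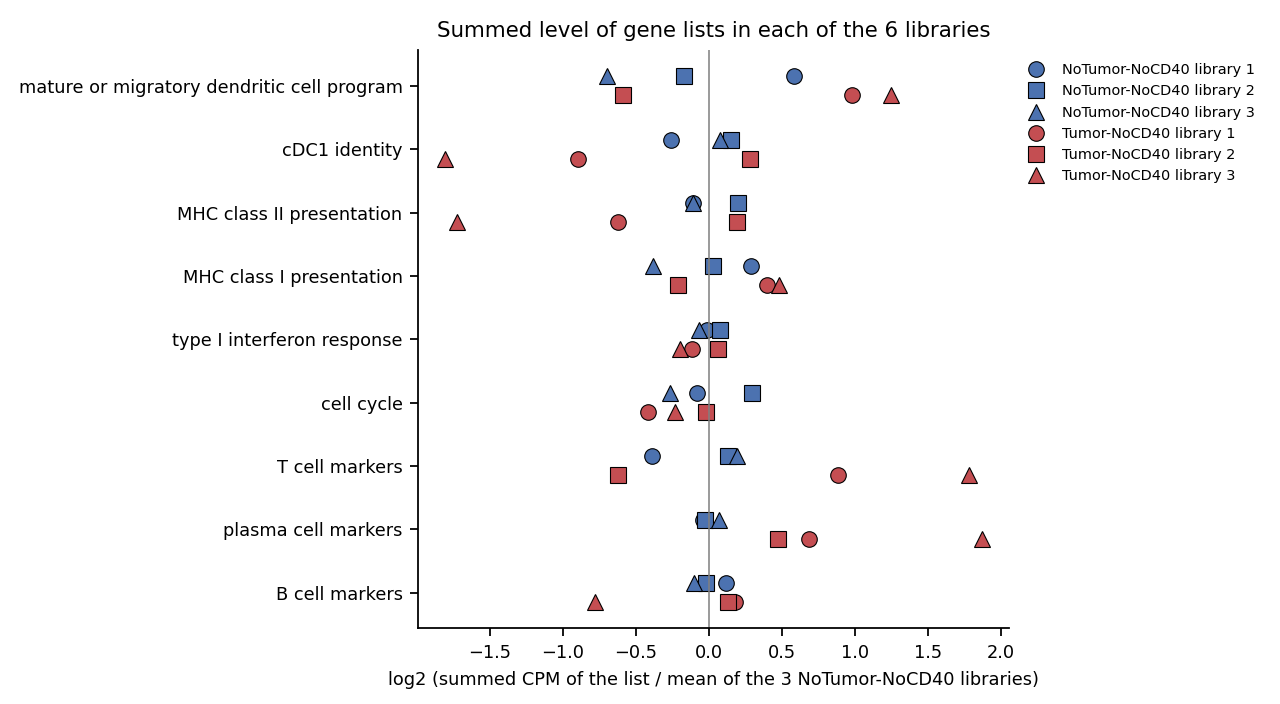
For 9 gene lists, the log2 ratio of the summed CPM in each library to the mean of the 3 NoTumor-NoCD40 libraries; blue is without and red with a tumor, and circle, square and triangle are libraries 1, 2 and 3. Tumor-NoCD40 libraries 1 and 3 are to the right for the mature program and T cell markers and to the left for cDC1 identity and MHC class II. Library 2 lies within the range of the libraries without a tumor for the mature program and MHC class II. It lies beyond that range, on the side away from libraries 1 and 3, for T cell markers and cDC1 identity.

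Genes apart between the groups leaned the same way. Among these well-expressed genes (5 CPM or more in the higher group) 435 were apart and higher, and in 259 of them Tumor-NoCD40 library 2 was the tumor library nearest to the other group, against 96 for library 1 and 80 for library 3. Of 469 genes apart and lower, library 2 was nearest in 296. For Aldh1a2 the nearest tumor library was library 3, at 18.5 CPM with a mature-program sum of 45035 CPM. Tumor-NoCD40 libraries 1 and 2 had 35.3 and 30.9 CPM of Aldh1a2 with sums of 37509 and 12630 CPM. NoTumor-NoCD40 libraries 1 to 3 had 6.89, 4.26 and 2.87 CPM with sums of 28418, 16905 and 11743 CPM, in the same order. The part of maturity in the Aldh1a2 difference was not tested.

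MHC class II genes followed the identity list. The summed level was 43336, 53506 and 43177 CPM without and 30325, 53247 and 14111 CPM with a tumor, the lowest value being that of library 3. The median was -0.59 over 18 genes, with 1 higher and 1 lower at an unadjusted p under 0.05, and 3 higher and 12 lower without Tumor-NoCD40 library 2. The median was -1.21 without that library, -0.18 without library 3 and -0.19 without the third libraries of both groups. Ciita, the class II transactivator, was at 367.9, 509.5 and 677.9 CPM without and 230.7, 678.0 and 79.2 CPM with a tumor, with overlap. The 1 lower gene was Ctse, an endosomal cathepsin, at 10.1, 8.40 and 134 CPM without and 6.28, 7.72 and 6.47 CPM with a tumor. Its log2 fold change of -2.89 ± 0.84 (SE) rested on NoTumor-NoCD40 library 3 and was -0.43 without it.

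MHC class I genes and proteasome subunits had a median of 0.14 over 18 genes and 0 at an unadjusted p under 0.05 in either direction. There were 6 higher and 2 lower without Tumor-NoCD40 library 2, and the median was -0.03 without the third libraries of both groups. Tap1, the peptide transporter, was at 715.6, 674.6 and 676.2 CPM without and 758.0, 697.2 and 753.3 CPM with a tumor, a log2 fold change of 0.10 (95% interval -0.27 to 0.46). Among uptake and cross-presentation genes, 2 of 26 were higher at that p. Axl, a receptor for dying cells, was at 6.05, 6.79 and 6.72 CPM without and 11.2, 8.88 and 10.5 CPM with a tumor, without overlap (log2 fold change 0.65, 95% interval 0.14 to 1.15). Rac2, a subunit of the phagocyte oxidase machinery, was the other, at 82.8, 102.0 and 99.99 CPM without and 141.4, 104.9 and 155.2 CPM with a tumor.

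Interferon-stimulated genes gave little separation. The type I interferon list summed to 2424, 2583 and 2334 CPM without and 2260, 2547 and 2130 CPM with a tumor. Values of both groups were close, with a median of -0.16 over 40 genes and 0 at an unadjusted p under 0.05, against 11 lower without Tumor-NoCD40 library 2. Isg15 had a log2 fold change of -0.22 (95% interval -0.80 to 0.37). Of 30 interferon gamma response genes, 3 were higher at that p, namely Gbp5, Gbp7 and Cd274. The 3 became 1 without NoTumor-NoCD40 library 2 or Tumor-NoCD40 library 1 or 3. Without Tumor-NoCD40 library 2 there were 12 higher and 7 lower. The NF-kB and CD40 signaling list had 26 of 31 genes above 0, a median of 0.40 and 4 genes higher at that p (Rela, Traf6, Cflar and Bcl2l1), which became 9 higher without NoTumor-NoCD40 library 1, 21 without Tumor-NoCD40 library 2 and 0 without each of the other 4. None was lower, and 1 was lower without NoTumor-NoCD40 library 2 or Tumor-NoCD40 library 1. Its sum was 4092 CPM in Tumor-NoCD40 library 2, below all 3 libraries without a tumor, and 7208 and 8205 CPM in libraries 1 and 3.

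Immediate early genes, which also respond to tissue dissociation, had a median of -0.54 over 26 genes, with 1 higher and 3 lower at an unadjusted p under 0.05. The 3 lower became 0 without library 3 of either group, 1 without NoTumor-NoCD40 library 1, 6 without NoTumor-NoCD40 library 2 and 12 without Tumor-NoCD40 library 2. Fosb was at 268.1, 252.0 and 443.2 CPM without and 117.6, 222.4 and 57.9 CPM with a tumor, and the groups did not overlap. Nr4a3, a nuclear receptor of the same class of early genes, was the higher one, at 35.1, 38.3 and 33.8 CPM without and 48.7, 58.2 and 45.2 CPM with a tumor. In the hypoxia list 3 of 20 were higher. That count was 1 without NoTumor-NoCD40 library 2 or Tumor-NoCD40 library 3, and 5 higher with 1 lower without Tumor-NoCD40 library 2. Ddit4, an inhibitor of mTORC1 induced by stress, was at 9.68, 10.8 and 9.27 CPM without and 17.4, 17.1 and 30.3 CPM with a tumor, a log2 fold change of 1.12 (95% interval 0.50 to 1.75). Among 22 glycolytic genes 2 were higher, including the glucose transporter Slc2a3, at 5.47, 6.64 and 8.53 CPM without and 12.9, 8.96 and 12.2 CPM with a tumor. The glycolytic count was 0 without Tumor-NoCD40 library 1 or 3, and 6 higher with 5 lower without Tumor-NoCD40 library 2.

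Of 32 cell cycle genes 27 were below 0 with all 6 libraries. The median was -0.22, and 1 gene, Tk1, was lower at an unadjusted p under 0.05. The direction rested on single libraries, since the median was 0.02 without NoTumor-NoCD40 library 2 and -0.05 without Tumor-NoCD40 library 1. In 5 of the 32 the groups lay apart and lower (4.92% of all genes did), namely Ccne2, Tyms, Birc5, Bub1 and Tk1. Tk1, thymidine kinase, was at 45.8, 51.1 and 45.9 CPM without and 24.7, 43.4 and 27.21 CPM with a tumor. Mki67 overlapped, with a log2 fold change of -0.15 (95% interval -0.91 to 0.60). The unfolded protein response list, genes that answer misfolded protein in the endoplasmic reticulum, had 15 of 20 members below 0 and a median of -0.27, with 0 genes at that p. Without Tumor-NoCD40 library 2 its median was -0.57 and 12 genes were lower, and without library 3 the median was -0.07. The lists of metabolism had medians of 0.11 for cholesterol biosynthesis, -0.10 for fatty acid and lipid genes and -0.09 for oxidative phosphorylation, with 0, 1 and 0 genes at that p. These medians also rested on single libraries. The cholesterol median was -0.02 without NoTumor-NoCD40 library 3. Without NoTumor-NoCD40 library 2 the oxidative phosphorylation median was 0.03 and the lipid median -1.5e-05. Medians were 0.17 for interleukin 10 and STAT3, 0.19 for TGF-beta and 0.23 for growth factor receptor genes, with 4, 1 and 2 genes higher. The 4 of interleukin 10 and STAT3 became 0 without Tumor-NoCD40 library 1 or 3, 1 without NoTumor-NoCD40 library 2 or 3, and 7 without Tumor-NoCD40 library 2. The medians were -0.28 for pathogen sensors, 2 of which were lower (Cgas and Aim2), and 0.16 for the apoptosis list. The pathogen sensor median was -0.64, with 1 higher and 12 lower, without Tumor-NoCD40 library 2. It was -0.00093, with 0 lower, without Tumor-NoCD40 library 3.

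Other genes were singled out by their p among well-expressed genes with groups apart. Slpi, a secreted inhibitor of leukocyte proteases, was at 1.53, 0.537 and 0.574 CPM without and 8.72, 4.59 and 35.4 CPM with a tumor. Library 3 was far the highest, and the log2 fold change of 4.20 ± 0.86 (SE) was 2.90 without it. Ndrg2 was at 1.22, 1.42 and 1.48 CPM without and 11.98, 6.10 and 4.07 CPM with a tumor, and AA467197 at 1.95, 1.57 and 1.39 CPM without and 7.77, 6.55 and 5.41 CPM with one. Ccnd2, cyclin D2, was at 35.6, 53.3 and 38.5 CPM without and 95.5, 60.8 and 108.4 CPM with a tumor. The uncharacterised 2510009E07Rik had a log2 fold change of 1.15. All had an adjusted p of 0.775 by edgeR's quasi-likelihood test. DESeq2 called 3 of them, Slpi (adjusted p = 2.41e-06), AA467197 (adjusted p = 0.00069) and Ndrg2 (adjusted p = 0.000984). It also called Pdcd1lg2 (adjusted p = 0.000217), Scin (adjusted p = 0.00253) and Ccl17 (adjusted p = 0.0335).

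Genes chosen in the same way on the lower side included, besides Ctse, Clcn6, Tpgs2, Traip, Dhx32, 9030025P20Rik, Cdc16, Lage3 and Gm16211, with log2 fold changes from -1.22 (9030025P20Rik) to -0.63 (Lage3). Traip, a ubiquitin ligase of DNA replication, was at 6.24, 10.6 and 7.21 CPM without and 2.15, 4.67 and 3.74 CPM with a tumor. Afg1l, a mitochondrial ATPase with a lower level, was at 3.29, 5.45 and 3.36 CPM without and 0.785, 0.828 and 0.727 CPM with a tumor (log2 fold change -2.37), and DESeq2 called it (adjusted p = 0.00309).

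Markers of other cell types moved with some of these results. All 15 T cell markers were above 0 (median 1.03), 6 at an unadjusted p under 0.05, and 0 had groups apart. Their sum was 273.0, 390.5 and 408.3 CPM without and 660.2, 232.0 and 1227 CPM with a tumor, high in the same libraries 1 and 3 that were high in the mature program and in Pdcd1 and Lag3. Cd3e was at 64.8 CPM in Tumor-NoCD40 library 3 and 11.3 CPM in library 2. The count of 6 was 0, 3 and 3 on leaving out each NoTumor-NoCD40 library (1 to 3), and 7, 15 and 0 on leaving out each Tumor-NoCD40 library (1 to 3). The part of T cell RNA in those results was not tested.

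Among plasma cell markers, 3 genes of antibody-secreting cells, Ighg1, Jchain and Mzb1, were higher in each tumor library. The sum of the list was 100.9, 101.9 and 109.1 CPM without and 167.2, 144.5 and 380.1 CPM with a tumor, and 3 of 9 tested were higher at an unadjusted p under 0.05, a count that was also 3 without each library in turn. The other 6 genes overlapped, 2 of them below 0, and summed to 80.5, 92.3 and 97.5 CPM without and 77.2, 104.2 and 68.2 CPM with a tumor. Ighg1, the constant region of IgG1, was at 14.7, 6.48 and 3.32 CPM without and 57.6, 27.1 and 235.0 CPM with a tumor (log2 fold change 3.70 ± 0.84 SE). Jchain, which joins secreted antibodies, was at 4.55, 2.22 and 6.89 CPM without and 25.1, 10.6 and 61.8 CPM with a tumor, and Mzb1 had the same order. The antibody segments Iglc1, Igkv4-53 and Ighv8-8 were also apart and higher, and near-identical segments may share reads. B cell markers overlapped, with sums from 461.4 to 537.6 CPM without and from 288.4 to 560.4 CPM with a tumor.

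Krt8, a keratin of simple epithelia and of carcinoma cells, was at 0.268, 0.115 and 0.287 CPM without and 1.90, 4.78 and 2.18 CPM with a tumor (log2 fold change 3.71). All of these levels were below 5 CPM. With agonist, Krt8 was at 1.11, 0.825 and 1.15 CPM in NoTumor-CD40 and 0.260, 0.124 and 1.78 CPM in Tumor-CD40 libraries (log2 fold change -0.47). Krt7 was at 1.34, 1.07 and 1.31 CPM without and 2.07, 3.35 and 2.69 CPM with a tumor. Of 14 epithelial and tumor markers 8 passed the filter, and their sum was from 12.1 to 23.7 CPM without and from 18.4 to 30.0 CPM with a tumor, with overlap. The list's median log2 fold change was 0.43 without agonist and -0.80 with it. Krt19 did not pass the filter, with 57 counts in Tumor-NoCD40 library 2 and 0 in Tumor-NoCD40 libraries 1 and 3. Whether the keratin reads come from tumor cells was not tested.

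Cd207, langerin, which cDC1 and Langerhans cells carry, was at 85.8, 122.3 and 90.9 CPM without and 43.9, 82.9 and 15.6 CPM with a tumor, apart and lower, with an interval from -2.54 to 0.40. The summed levels of monocyte markers were 844.5, 964.0 and 848.5 CPM without and 692.8, 788.0 and 441.2 CPM with a tumor, so that all 3 tumor libraries were lower. Of the 10 monocyte genes only Ccr2 was at an unadjusted p under 0.05, and only Ccr2 had groups apart. The separation of the sums rested on Ccr2, since the sums of the other monocyte genes overlapped between the groups. Markers of cDC2 summed to between 473.4 and 565.9 CPM without and between 379.9 and 574.0 CPM with a tumor, and the median of plasmacytoid markers was 0.53. Medians were 0.41 for macrophage, 0.55 for NK, 0.53 for neutrophil, 0.52 for stromal, 0 for endothelial, 0.08 for mast cell, 0.22 for Langerhans and 2.59 for red cell genes, the last from 54.0 CPM in Tumor-NoCD40 library 3. Several of these medians rested on 1 library: without Tumor-NoCD40 library 1 they were -0.40 for macrophage, -0.03 for NK and 0.08 for plasmacytoid genes, without NoTumor-NoCD40 library 3 the neutrophil median was 0.05, and without Tumor-NoCD40 library 3 they were 0.04 for stromal, -0.06 for Langerhans and -0.82 for red cell genes. Of 10 acinar genes 1 was tested, at most 0.799 CPM.

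The same tumor contrast can be read in the 6 libraries from mice given the agonist, none of which entered the groups above. Aldh1a2 was at 5.47, 6.52 and 2.50 CPM in NoTumor-CD40 and at 11.5, 16.5 and 12.3 CPM in Tumor-CD40 libraries. The groups again did not overlap, and the log2 fold change was 1.48 ± 0.39 (SE; adjusted p = 0.203 by edgeR's quasi-likelihood test). Slpi was at 6.66, 4.36 and 1.11 CPM against 48.0, 24.6 and 36.7 CPM, a log2 fold change of 3.18 ± 0.66 (adjusted p = 0.075 by the same test). Ighg1 passed the threshold there, with 4.77 ± 0.84 (adjusted p = 0.0446). Pdcd1lg2, Scin, Ccl17 and Cd274 overlapped, with log2 fold changes of 0.45, 0.21, -0.55 and -0.28, and levels in NoTumor-CD40 libraries that reached those of the tumor libraries.

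Lists also took other values there: the median was -0.57 for the mature program and -0.11 for cDC1 identity. It was 2.27 for plasma cell markers, which include Ighg1, 2.66 for B cell markers and 1.46 for macrophage markers, which include Apoe. The part of RNA from such cells in the tumor contrast with agonist was not tested. Of 23 named genes that were apart and higher without agonist, 13 had the same sign with it and 7 were also apart and higher (6.68% of all genes were with agonist), namely Aldh1a2, Slpi, Ighg1, Iglc1, Apoe, Ddit4 and Slc2a3. Of 15 that were apart and lower, 7 had the same sign, and 3 (Lage3, Xlr and 9030025P20Rik) were apart and lower (6.2% of all genes were with agonist). Afg1l, Traip, Dhx32 and Tpgs2 were apart and higher with agonist. Over well-expressed genes, 39 of the 435 apart and higher (8.97%) were apart and higher with agonist, and 35 (8.05%) were apart and lower. Among all 10472 well-expressed genes, 6.75% were apart and higher with agonist and 7.17% apart and lower. The sign with agonist was the same in 160 of the 435 (36.8%) and in 214 of the 469 apart and lower (45.6%), so most of these genes had the opposite sign there. The test of the difference between both contrasts (the tumor by agonist interaction) passed the threshold in 0 of 18095 genes by edgeR's quasi-likelihood test (0%). At an unadjusted p under 0.05 there were 1773 genes, DESeq2 called 18 and limma-voom 0.

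**Figure D5:**
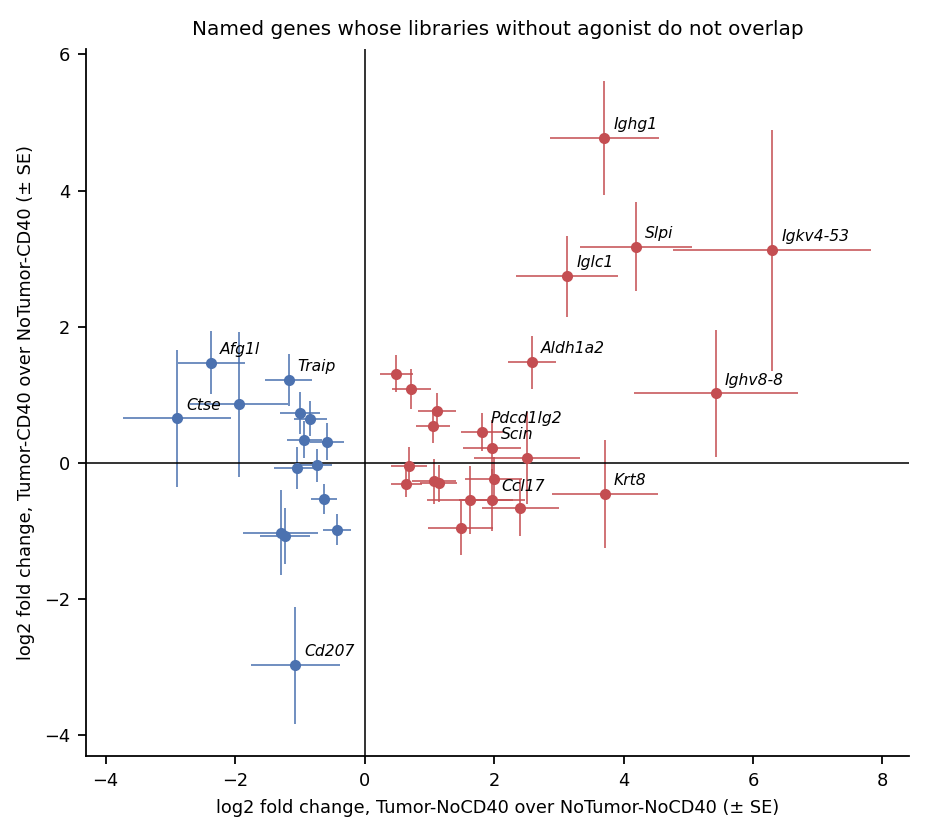
Log2 fold change of tumor over no tumor without agonist (x axis) and with agonist (y axis), each with its standard error, for 38 named genes whose libraries without agonist do not overlap; red is higher and blue lower. Aldh1a2, Slpi, Ighg1 and Iglc1 are above 0 on both axes, while Ccl17 is near or below 0 on the y axis and Afg1l and Traip are above it.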

How the data were processed

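Total RNA of cDC1 was extracted with a micro-column kit and made into directional libraries, per the labels' protocols. The submitters' processing notes name Salmon and the mm10 build for quantification, while the deposited counts and TPM are labelled sailfish. Which tool was used is not settled by the labels. Version and annotation are not given in the sources used here. The authors deposited expected counts (estimated, not normalized) and TPM (scaled by length and to one total) per transcript. GENCODE M21 (GRCm38) assigned 136176 of 136288 transcripts to 53458 genes; the other 112 held 0.0279% to 0.0457% of counts and were left out. Gene sums of counts were rounded, filtered (filterByExpr, minimum count 10, total 15), scaled by TMM and fitted in edgeR 4.0.16 (R 4.3.3, quasi-likelihood, 4 groups, 12 libraries, 8 residual degrees of freedom, Benjamini-Hochberg over 18095 genes). The code was tested on simulated data. CPM are TMM-scaled. DESeq2 1.42.0 and limma 3.58.1 were alternatives, with others on filter, scaling, pseudocount, replicates and title prefix. Named genes were a panel, up to 10 genes per direction by p with at least 5 CPM and groups apart, the leading member of each list, and up to 10 genes called by an alternative; a few more list members are given as values and were chosen after their values were seen. Members and lists were chosen with earlier results of these data known. Of the 43 lists, the one of sex-linked genes had 0 of 5 tested genes at an unadjusted p under 0.05. Values of a few named genes are not reported here.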

Additional observations from a re-analysis of the deposited data

How the results depend on the processing

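The count of genes past the threshold, 0 in the main fit, was 29 with DESeq2, 8 with limma-trend on log2(TPM + 1) and no filter, 1 (Aldh1a2) with edgeR and no filter, and 0 with the other normalization, limma-voom, the other TPM fits and the 6 libraries alone. Leaving out each replicate in turn gave 0 to 2, the 2 (Aldh1a2 and AC169509.1) without Tumor-NoCD40 library 3. Genes at an unadjusted p under 0.05 then ran from 570 (without that library) to 3329 (without Tumor-NoCD40 library 2, over the 19729 genes its own filter kept), against 1053; the cause was not tested. Without library 3 of both groups, an alternative chosen after seeing the data, 0 passed and 507 were at that p. The interaction count, 0 in the main fit, was 18 with DESeq2, 2 with limma-trend on log2(TPM + 1), 7 with that fit and no filter, and 0 without each replicate of the 4 groups (the agonist libraries were left out for this count only, chosen after seeing the data); the cause was not tested. With the title prefix as a replicate block, 0 genes passed (696 at that p). Deviations of libraries of one prefix correlated at 0.365 and 0.23, and those of different prefixes at -0.49 to 0.336. Between libraries 1 and 2 of different prefixes the values were -0.49 and -0.13. Pairs with a library 3 gave 0.323 and 0.336, and otherwise -0.284 to -0.179. Deviations within a group of 3 libraries are not independent, so this check cannot decide whether the prefix marks pairs. The main fit did not use the prefix. Of 84 named genes, 8 changed sign in an alternative, all uncalled (Ccl5, Cd40, Ciita, Cpa3, H2-K1, Itgae, Vwf and Xist). Of 772 list medians, 63 moved by more than the spread. With 3 libraries a group, an interval that holds 0 leaves the direction of a difference unresolved.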
